A study of Bos taurus with 14 samples.

Results

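LRAT (ENSBTAG00000017167), VIM (ENSBTAG00000018463) and CRYAB (ENSBTAG00000000434) were followed in the livers of newborn heifer calves, 3 of 27607 genes in the count table and 3 of the 13307 that were expressed highly enough to be tested. The question was whether the gene for retinoid storage moved against the mesenchymal and stress genes within the same calf. The genes were selected on their difference in level between VTM and CON calves, as called by the study, so their levels by diet are given as a description without a test. Relations between the genes among calves of the same diet did not enter that choice and were tested.

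Hepatic stellate cells lie between hepatocytes and the sinusoidal endothelium and hold most of the body's vitamin A as retinyl esters in lipid droplets. LRAT, lecithin retinol acyltransferase, makes those esters from retinol. When stellate cells are activated, as in injury, they lose their retinoid and take on a contractile, matrix-producing state. VIM, vimentin, is the intermediate filament protein of mesenchymal cells and is also found in endothelial cells and leukocytes. CRYAB, alpha B-crystallin, is a small heat shock protein that keeps unfolded proteins, filaments among them, from aggregating.

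The calves were the daughters of crossbred Angus-based heifers bred to 1 bull with female-selected semen. CON dams ate a basal ration, and VTM dams ate that ration with 113 g per day of a premix of minerals and vitamins A, D and E, from 60 days ahead of breeding until calving. All calves were kept from suckling, given the same colostrum replacer and then milk replacer, and sampled at about 30 h of age. Each library was the polyadenylated RNA of 1 calf's whole liver, in which fewer cells of a type and less RNA per cell cannot be told apart. The deposited table held 7 VTM and 7 CON calves. The study analysed 6 of each and left out VTM 10 and CON 19, whose unique mapping did not exceed its limit of 80%, and the same 12 calves are used below unless all 14 are named.

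Total counts ranged from 14989388 to 20125409 in the 12 calves and from 13382264 in all 14. Of the 12, CON 31 and VTM 40 stood apart. The mitochondrial share was the share of counts on the 12 protein-coding genes of the mitochondrial genome that could be named, without its rRNA and tRNA genes. It was 18.1% in CON 31, against 1.89% to 8.57% in the other 13. VTM 40 had 15395 genes without a count and only 318 genes with 1 to 9 counts. Of the left-out calves CON 19 stood apart as well, with 13079 genes without a count and 1265 with 1 to 9 counts, while CON 31 had 1531 of the latter and the remaining 11 libraries 2257 to 3349. Without CON 31 and VTM 40 the log2 differences between diets were 0.81 for LRAT, -0.82 for VIM and -0.57 for CRYAB.

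LRAT was higher in VTM calves. Levels are in CPM, the gene's share of the counts of its library, scaled to a common library size. The VTM calves had 14.6 ± 2.76 CPM (SD, n = 6), with 11.8 in VTM 28, 12.1 in VTM 4, 13.5 in VTM 22, 14.2 in VTM 40, 16.9 in VTM 16 and 18.8 in VTM 34. The CON calves had 8.21 ± 2.04 CPM (SD, n = 6), with 5.79 in CON 7, 6.42 in CON 37, 7.22 in CON 31, 9.35 in CON 1, 9.48 in CON 25 and 11.01 in CON 13. Every VTM calf lay above every CON calf, and the log2 difference was 0.83 (SE 0.20), or 1.77-fold. Such a gap without overlap, higher in VTM, was seen in 0.0902% of tested genes, a share from which nothing is read here because this contrast chose the gene. The nearest calves of the groups were separated by little, since the exact Poisson 95% interval of the count was 9.49 to 12.7 CPM in CON 13 and 10.4 to 13.4 CPM in VTM 28. Those intervals cover counting error only.

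VIM was lower in VTM calves. The VTM calves had 173 ± 37.1 CPM (SD, n = 6), with 128 in VTM 16, 149 in VTM 22, 171 in VTM 4, 174 in VTM 40, 177 in VTM 34 and 238 in VTM 28. The CON calves had 313 ± 85.2 CPM (SD, n = 6), with 192 in CON 1, 279 in CON 13, 297 in CON 37, 316 in CON 25, 345 in CON 31 and 452 in CON 7. The groups overlapped only through CON 1 and VTM 28, the lowest CON calf and the highest VTM calf. The log2 difference was -0.86 (SE 0.20), a ratio of 0.552.

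CRYAB was also lower in VTM calves, with the widest spread of the 3 genes. The VTM calves had 15.1 ± 4.16 CPM (SD, n = 6), with 10.9 in VTM 28, 11.1 in VTM 4, 12.1 in VTM 40, 17.2 in VTM 34, 19.3 in VTM 22 and 19.8 in VTM 16. The CON calves had 26.4 ± 8.95 CPM (SD, n = 6), with 14.7 in CON 1, 20.1 in CON 37, 25.2 in CON 13, 27.9 in CON 25, 29.6 in CON 7 and 40.9 in CON 31. In CON calves, 5 of 6 lay above the highest VTM calf, and CON 1 was below 3 VTM calves. The log2 difference was -0.81 (SE 0.24), a ratio of 0.572. The highest value of the gene came from CON 31, the library with the large mitochondrial share, and leaving out that calf gave -0.63. Its first rank rested on the scaling factor, since CON 31 had 509 CRYAB counts in a total of 17729253 and CON 7 had 583 in 17099076.

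The coefficient of variation in VTM and CON calves was 18.98% and 24.8% for LRAT, 21.5% and 27.2% for VIM, and 27.6% and 33.9% for CRYAB. The spread was wider in CON calves for each gene, a difference that was not tested.

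**Figure D1:**
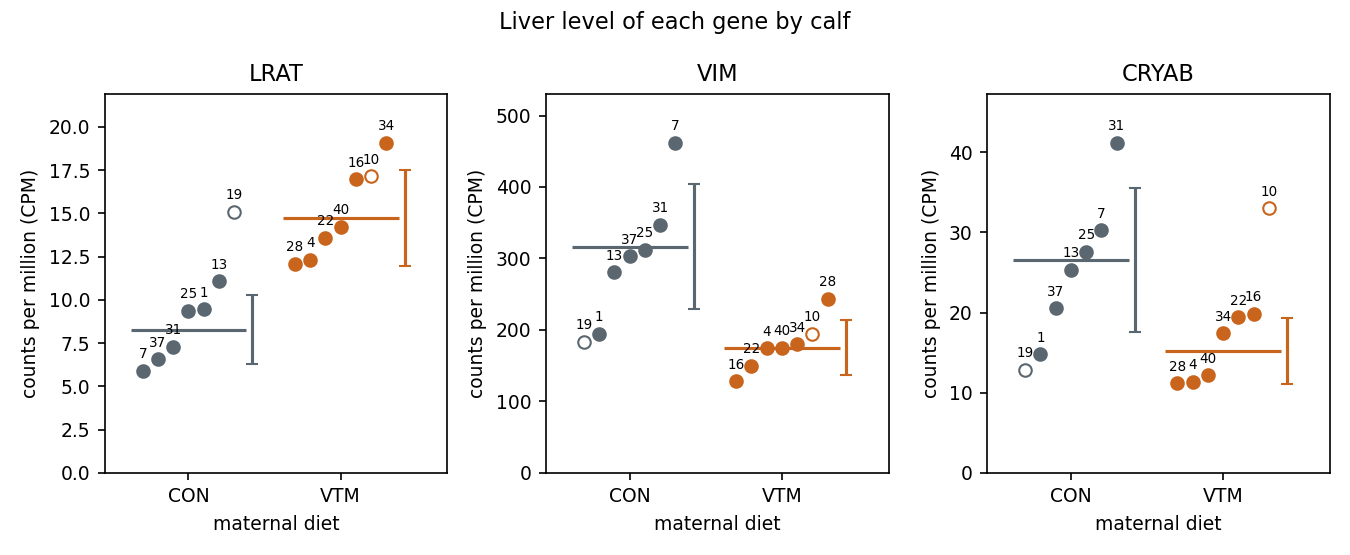
Level of LRAT, VIM and CRYAB in CPM (vertical axes from 0) in each calf, scaled over all 14 libraries, with the calf number above each point. Filled points are the 12 calves of the study and hollow points the 2 it left out, horizontal lines are the means and bars the SD of the filled points, and LRAT separates the filled points of the diets while VIM and CRYAB overlap.

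CON 19 and VTM 10 did not enter the choice of genes, so they are the calves of these diets in which the levels were not selected. On the scale of all 14 libraries, LRAT was 15.1 CPM in CON 19 and 17.1 CPM in VTM 10, a log2 difference of 0.19. CON 19 thus lay above the other CON calves, whose highest value was 11.1 CPM, and within the range of the VTM calves. VIM was 183 CPM in CON 19, the lowest of 7 CON calves, and 195 CPM in VTM 10, the second highest of 7 VTM calves, a log2 difference of 0.09. CRYAB was 12.9 CPM in CON 19, again the lowest of its diet, and 33.0 CPM in VTM 10, the highest of its diet, a log2 difference of 1.36. Between these calves LRAT and VIM were thus nearly level, and CRYAB was higher in the VTM calf. With all 14 calves the log2 differences between diets were 0.70 (SE 0.21) for LRAT, -0.74 (SE 0.20) for VIM and -0.47 (SE 0.28) for CRYAB, and the groups overlapped for each gene. Both libraries had low mapping and CON 19 few genes with low counts, and the part of these in their levels was not tested.

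The balance of LRAT against the other genes was read within each calf as the log2 ratio of counts, which does not depend on how libraries are scaled. Because transcript lengths differ, a ratio is compared between calves and says nothing of which gene was the more abundant. The LRAT to VIM ratio was -3.57 ± 0.49 in VTM calves (SD, n = 6; -4.34 to -2.92) and -5.25 ± 0.70 in CON calves (SD, n = 6; -6.29 to -4.36), a difference of 1.68 or 3.21-fold. The LRAT to CRYAB ratio was -0.03 ± 0.29 in VTM calves (SD, n = 6; -0.51 to 0.22) and -1.65 ± 0.70 in CON calves (SD, n = 6; -2.50 to -0.65), a difference of 1.62 or 3.08-fold. Neither ratio overlapped between diets, although VTM 28 at -4.34 and CON 1 at -4.36 were almost equal for LRAT to VIM. The VIM to CRYAB ratio was 3.54 ± 0.66 in VTM calves and 3.60 ± 0.32 in CON calves (SD, n = 6 each), a difference of -0.06. These directions follow from the choice of the genes. LRAT, which is part of both ratios without overlap, already separated these calves by itself, so nothing is read from the lack of overlap. In the calves outside that choice, CON 19 had an LRAT to VIM ratio of -3.60, inside the VTM range, and an LRAT to CRYAB ratio of 0.23, level with the highest VTM calf, and VTM 10 had -3.51 and -0.95. With them the groups overlapped, and the differences were 1.45 for LRAT to VIM and 1.22 for LRAT to CRYAB.

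**Figure D2:**
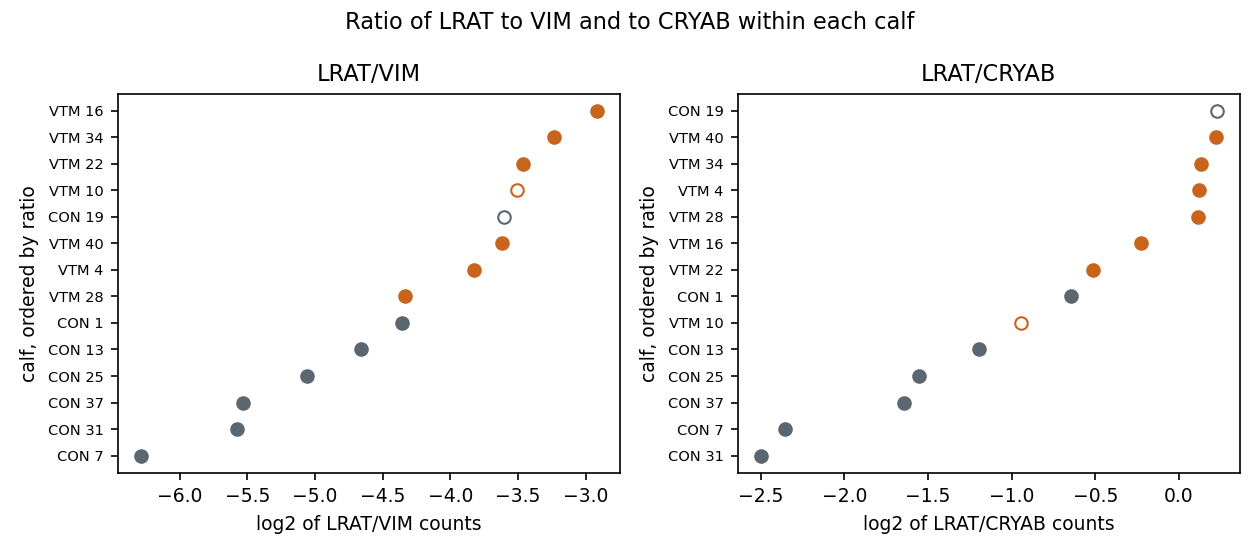
Log2 ratio of LRAT to VIM counts (left) and of LRAT to CRYAB counts (right) on the horizontal axis, for each calf ordered by its ratio; grey is CON, orange is VTM, and hollow points are CON 19 and VTM 10. The filled VTM points lie above all filled CON points in both panels, while CON 19 falls among the VTM calves for LRAT to VIM and tops the order for LRAT to CRYAB.

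Among calves of the same diet, LRAT tended to be low where VIM was high, but in the 12 calves no relation between the 3 genes passed a correction for the 6 relations tested. All tests of these relations were two-sided exact permutation tests on log2 CPM with Benjamini-Hochberg adjustment. In CON calves LRAT and VIM had Pearson's r = -0.64 (exact p = 0.163, adjusted p = 0.244, n = 6) and Spearman's rho = -0.60 (exact p = 0.242). CON 7 had the least LRAT and the most VIM. In VTM calves the values were r = -0.51 (exact p = 0.325, adjusted p = 0.39, n = 6) and rho = -0.26 (exact p = 0.658). VTM 28 had the least LRAT and the most VIM of its diet, and VTM 16 the least VIM with the second highest LRAT. Without the calves farthest from the median of LRAT, CON 7 and CON 13 or VTM 16 and VTM 34, r was -0.48 in CON and -0.65 in VTM calves. Leaving out 1 calf at a time moved r between -0.74 and -0.38 in CON calves, with the weakest value without CON 7. In VTM calves it moved between -0.82 without VTM 34 and -0.18 without VTM 28, with -0.32 without VTM 16, so that the size of this relation depended on single calves. The correlations differed between diets by 0.14 (exact permutation of diet labels over 924 splits, p = 0.714). In this comparison each diet's mean was removed before labels were permuted over all splits. Its p is therefore approximate where the spread differs between diets, here and for the other pairs below.

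With each diet's mean removed, LRAT and VIM had r = -0.60 over the 12 calves (permutation p = 0.0608, adjusted over 3 pairs 0.183) and rho = -0.43 on ranks within diets (permutation p = 0.202). Without the pair of calves farthest out, r was -0.75. Adding CON 19 and VTM 10 gave r = -0.69 (permutation p = 0.0167, adjusted p = 0.0501, n = 14) and rho = -0.45 (permutation p = 0.132), and r was -0.38 without the 2 calves farthest from the median. In the 7 CON calves alone, r was -0.81 (exact p = 0.0292, adjusted p = 0.0875), and it was -0.43 without CON 7 and CON 19, so that the relation rested largely on those calves. In the 7 VTM calves r was -0.35 (exact p = 0.458) and rho was -0.036 (exact p = 0.963), with r = -0.82 without VTM 10 and VTM 34.

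CRYAB and VIM had correlations of opposite sign in the CON and VTM calves of the 12, neither of which passed adjustment. In CON calves CRYAB was high where VIM was high, with r = 0.78 (exact p = 0.075, adjusted p = 0.225, n = 6) and rho = 0.89 (exact p = 0.0333, adjusted p = 0.2). In VTM calves it was the other way, with r = -0.77 (exact p = 0.0375, adjusted p = 0.225, n = 6) and rho = -0.77 (exact p = 0.103, adjusted p = 0.272). VTM 16 and VTM 22 had the least VIM with the most CRYAB, and VTM 28 had the most VIM with the least CRYAB. Without CON 1 and CON 7, r was 0.81 in CON calves, and without VTM 16 and VTM 28 it was -0.60 in VTM calves. Without CON 1 alone, however, r in CON calves was 0.45 (exact p = 0.433, n = 5), and leaving out the other calves singly gave up to 0.88. In VTM calves leaving out 1 calf gave -0.86 to -0.65. The difference between diets, VTM less CON, was -1.55 (exact permutation of diet labels, p = 0.0238, adjusted over 3 pairs 0.0714), a test chosen after the correlations were seen. With 14 calves it was -1.14 (exact permutation over 3432 splits, p = 0.0227, adjusted p = 0.0385). In the 7 CON calves r was 0.86 (exact p = 0.0151, adjusted p = 0.0875) and rho was 0.93 (exact p = 0.00675, adjusted p = 0.0405), the only relation within a diet to pass adjustment, and r was 0.45 without CON 1 and CON 19. With VTM 10, r in the 7 VTM calves was -0.28 (exact p = 0.528), and it turned to 0.33 without VTM 16 and VTM 28.

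LRAT and CRYAB had r = -0.27 in CON calves (exact p = 0.604, n = 6) and 0.71 in VTM calves (exact p = 0.154, n = 6), with rho of -0.26 and 0.71. Without CON 7 and CON 13 or VTM 16 and VTM 34 they were -0.26 and 0.53. Leaving out 1 calf gave -0.47 to -0.070 in CON and 0.61 to 0.91 in VTM calves. The difference of 0.98 did not pass (exact permutation p = 0.0823, adjusted p = 0.123), and with 14 calves it was 1.31 (exact permutation p = 0.0256, adjusted p = 0.0385). VTM 28 and VTM 4 were lowest for both genes among VTM calves, while CON 7, lowest for LRAT, was among the highest CON calves for CRYAB. The opposition of LRAT to CRYAB between diets was thus not seen among VTM calves.

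**Figure D3:**
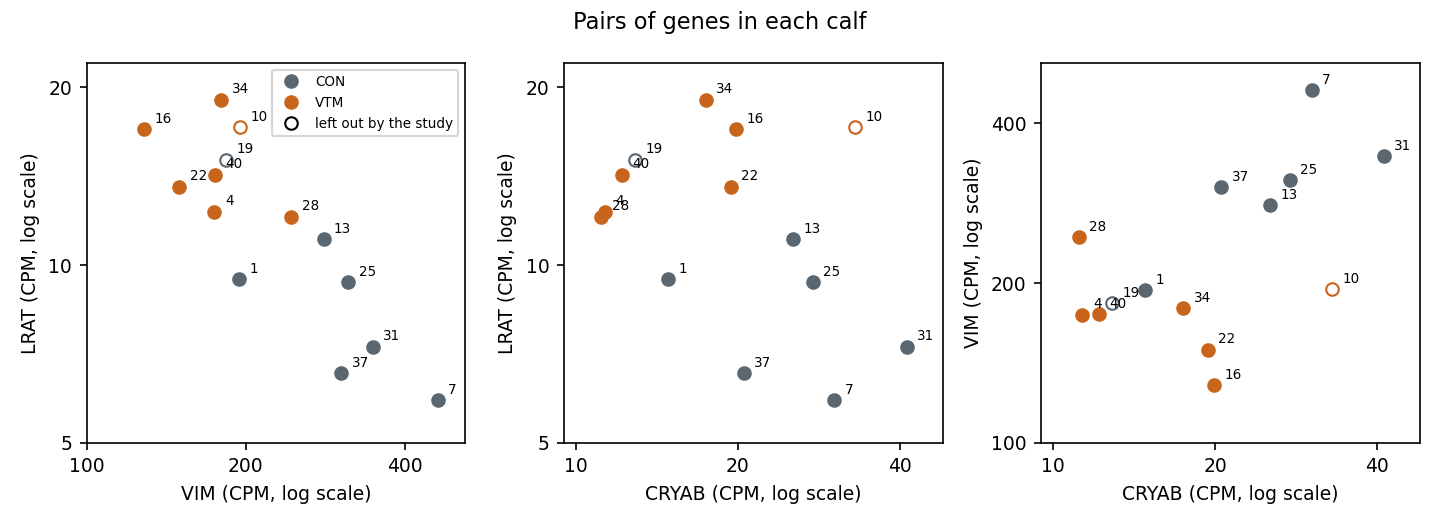
Level (CPM) of LRAT against VIM, LRAT against CRYAB and VIM against CRYAB on logarithmic axes, 1 point per calf with its number, grey for CON, orange for VTM and hollow for the 2 calves the study left out. Filled CON points rise together for VIM and CRYAB (r = 0.78), and filled VTM points fall (r = -0.77). Neither passed adjustment (exact permutation, adjusted p = 0.225 each).

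Set against every other tested gene, the LRAT to VIM relation lay near the edge of what LRAT and VIM showed. With diet means removed, 137 of 13306 genes (1.03%) had an r with LRAT as low as that of VIM or lower, and 128 genes (0.962%) had an r with VIM as low as that of LRAT or lower. These shares describe 12 calves, and genes are not independent of each other. The middle 90% of genes had r between -0.43 and 0.43 with LRAT and between -0.41 and 0.45 with VIM. CRYAB behaved differently: its range was -0.69 to 0.67, and 19.7% of genes had an r beyond 0.6 in either direction, against 1.98% for LRAT and 2.65% for VIM.

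**Figure D4:**
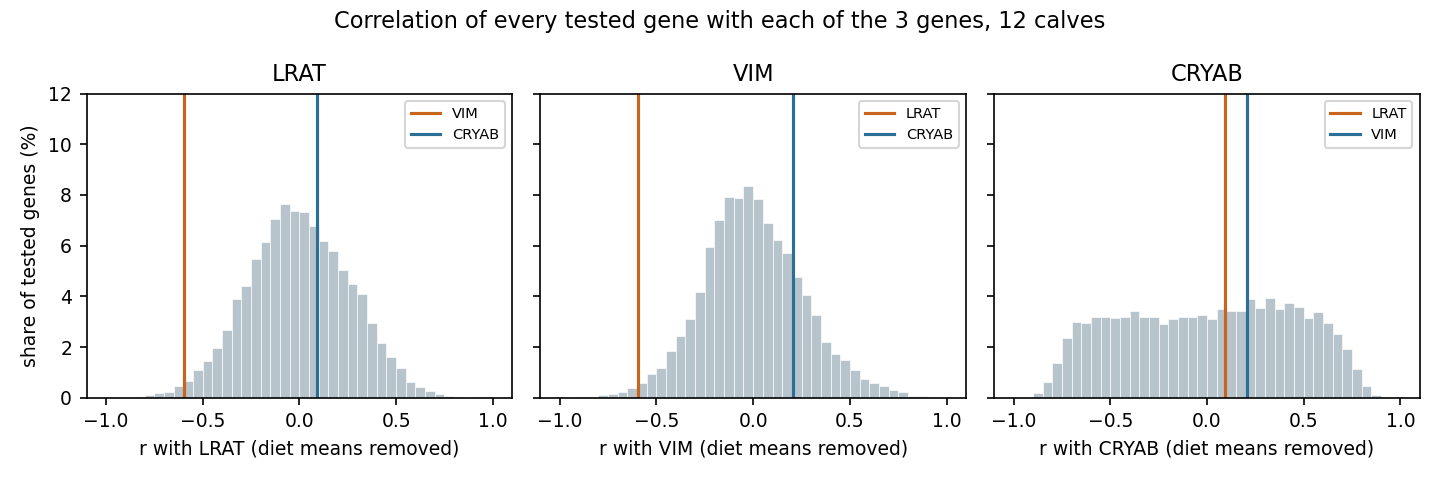
Share of the 13306 other tested genes (vertical axis, percent) by their Pearson r with LRAT, VIM or CRYAB over 12 calves after each diet's mean was removed, with vertical lines at the other members. The line at -0.60 sits in the lower tail for LRAT and for VIM, and the distribution for CRYAB is far wider.

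The genes most like each of the 3 were sought among 605 that could be named, all of them from gene tables the study made from these calves. For VIM they were TIMP2, an inhibitor of matrix metalloproteinases (r = 0.92, n = 12), SPARC, a collagen-binding matrix protein (0.90), EMCN, an endothelial sialomucin (0.88), PKIG, an inhibitor of protein kinase A (0.88) and GLIPR2 (0.83). Within each diet alone these 5 had r between 0.80 and 0.96. The named gene least like VIM was LRAT itself at -0.60, followed by the transcription factor TBX3 at -0.58.

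For CRYAB the most alike were CST6, a cystatin (0.87), PLEKHO1 (0.86), the small GTPase RRAS (0.85), ARAP3, a GTPase-activating protein (0.85), and CDK3 (0.84), with n = 12. Among the least alike was ONECUT1, a hepatocyte and biliary transcription factor (-0.83). LRAT had weaker partners, RASSF1 (0.60), IRX3 (0.53), the glycine transporter SLC6A9 (0.52), TDO2, which opens the tryptophan ring (0.50), and HAMP, the iron hormone hepcidin (0.49). Least like LRAT were MAPRE2, a microtubule end protein (-0.72), and PDE8B, a cyclic AMP phosphodiesterase (-0.71). The lists of most alike genes of LRAT, VIM and CRYAB shared no gene.

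Other genes of the same pathways and cell types were taken from lists of 208 genes. A name could be paired with an identifier for 33 of them besides the 3 members, and since the names come from tables in which the study listed genes it had called by diet on these calves and transcription factors, the matched genes are not independent evidence of any direction. The study's threshold, an absolute log2 difference of 0.5 or more with an unadjusted p no higher than 0.05, was applied to edgeR's quasi-likelihood test, and 3.71% of all tested genes passed, 0.864% higher and 2.85% lower in VTM calves. Of the 33, 25 were past it, and nothing is read from that share. With DESeq2, the test of the study, TTR, SYNM, RELN, FBLN1, TIMD4 and MPO were past it as well, which did not pass with edgeR. With all 14 calves 12 of the 33 were past it (background 2.07%), and without CON 31 and VTM 40 there were 15 (background 3.03%). None passed after adjustment over all genes (edgeR, adjusted p = 0.791 for each of the 33 except SOX9 at 0.861). The median log2 difference of all tested genes was -0.02.

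In the handling of retinoids and their lipid droplets, 4 of 42 list genes besides LRAT could be matched, with a median of -0.74. Of the genes past the threshold, 1 was higher and 2 were lower in VTM calves. ALDH1A2, which oxidizes retinal to retinoic acid, was 4.82 ± 1.48 CPM in VTM and 2.82 ± 1.01 CPM in CON calves (SD, n = 6 each), a log2 difference of 0.78 (SE 0.31). FABP5, a carrier of fatty acids and retinoic acid, was 5.62 ± 2.30 and 10.3 ± 3.47 CPM (-0.88, SE 0.30), and LPL, lipoprotein lipase, was 49.9 ± 8.20 and 75.3 ± 31.9 CPM (-0.60, SE 0.26). TTR, the carrier that binds retinol-binding protein, was also the only matched gene of the hepatocyte list and had -0.99 (SE 0.52), short of the threshold. The acyltransferase and the dehydrogenase were thus both at higher levels in VTM calves of the 12, but their r with diet means removed was 0.08. With all 14 calves ALDH1A2 had 0.47 and was not past the threshold. On the scale of all 14 libraries it was 7.06 CPM in CON 19 and 4.1 CPM in VTM 10. FABP5, LPL and TTR were higher in VTM 10, so these genes too went against their direction in the 12 calves. Such a comparison has 1 calf per diet and was not tested.

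Of 2 matched intermediate filament genes besides VIM, NES, nestin, was lower in VTM calves (13.9 ± 3.35 against 27.7 ± 16.3 CPM, log2 difference -0.999, SE 0.32), and SYNM, synemin, had 1.01 (SE 0.50) without passing the threshold, for a median of 0.0034 over the pair. NES had r = 0.58 with VIM and -0.60 with LRAT. HSPB6, the only other small heat shock gene matched, was lower in VTM calves (19.7 ± 4.20 against 39.4 ± 26.4 CPM, log2 difference -0.99, SE 0.35), and its r was 0.64 with CRYAB and 0.60 with VIM. The heat shock factor HSF1, the only matched gene of the heat shock response list, had -0.28 (SE 0.17) and did not pass, with r = 0.60 with CRYAB. HSPB2, the neighbour of CRYAB in the RefSeq annotation, was not analysed here.

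The stellate name was checked against marker genes. Of 16 genes of quiescent stellate cells 3 were matched, all of them detected, with a median log2 difference of 0.84. COLEC10, a collectin, was higher in VTM calves (15.03 ± 4.44 against 8.37 ± 3.66 CPM, 0.84, SE 0.29), CYGB, a globin of stellate cells, was lower (4.49 ± 1.60 against 6.71 ± 1.51 CPM, -0.58, SE 0.27), and RELN, reelin, had 0.91 (SE 0.47) without passing. With all 14 calves COLEC10 had 0.55 and CYGB -0.37, and neither was past the threshold. On the scale of those libraries, COLEC10 was 20.4 CPM in CON 19 and 13.3 CPM in VTM 10. RELN was 88.4 CPM in CON 19 and 75.4 CPM in VTM 10, and CYGB was higher in VTM 10. In these left-out calves all 3 thus went against their direction in the 12 calves, which was not tested. Of 18 genes of activation 7 were matched and all 7 were lower in VTM calves, with a median of -0.73, among them COL1A1 (415 ± 156 against 903 ± 490 CPM, -1.12, SE 0.35) and COL1A2 (-0.99, SE 0.35) of type I collagen, the actin-binding TAGLN (-0.73, SE 0.28) and the matricellular CCN2 (-1.41, SE 0.64). The other 3 were COL3A1, SPARC and TPM2, between -0.69 and -0.61. Of the activation genes only CCN2 kept this direction in the left-out calves, at 5.11 CPM in CON 19 and 4.47 CPM in VTM 10. In the 12 calves CCN2 was low in level, from 0 to 4.85 CPM in VTM and from 4.82 to 23.1 CPM in CON calves.

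Matched markers of other liver cells differed between diets as well. Because most names came from genes the study had called by diet, this was largely set by the matching. The unmatched markers of these lists were not analysed here. Of 12 portal fibroblast genes 6 were matched, with a median of -0.76, and 5 were past the threshold, each lower in VTM calves. These were the dermal matrix protein DPT (-1.57, SE 0.38), MFAP4 (-1.08, SE 0.31), DCN, decorin (-0.84, SE 0.19), ELN (-0.65, SE 0.29) and FBLN2 (-0.63, SE 0.28). FBLN1 was lower as well, at -0.69 (SE 0.33), but did not pass. All 3 matched of 12 endothelial genes were lower, ROBO4 (-1.03, SE 0.22), EGFL7 (-0.78, SE 0.32) and STAB1 (-0.63, SE 0.26), with a median of -0.78. Of 3 matched cholangiocyte genes of 5, the keratins KRT7 (-0.92, SE 0.30) and KRT19 (-0.64, SE 0.27) were lower, and SOX9 had 0.54 (SE 0.69), for a median of -0.64. The Schwann cell marker S100B was lower (-0.72, SE 0.28), while the macrophage marker TIMD4 (-0.81, SE 0.38) and the granulocyte marker MPO (-1.50, SE 0.77) did not pass, each the only match of its list. The smooth muscle, lymphocyte, erythroid, mesothelial and skeletal muscle lists had no matched gene and were not analysed here.

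The summed CPM of the matched markers differed between diets, VTM less CON, by 1.01 on the log2 scale for quiescent stellate, -0.71 for activation, -0.77 for portal fibroblast, -0.60 for endothelial and -0.70 for cholangiocyte genes. RELN made up most of the quiescent sum, with means of 64.9 CPM in VTM and 34.5 CPM in CON calves. COLEC10 had 15.03 and 8.37 CPM, and CYGB, which went the other way, had 4.49 and 6.71 CPM. The quiescent difference was 0.57 as the mean of log2 CPM over its genes, and the endothelial difference was -0.38 without CON 31. The sum of the quiescent genes ranged from 69.3 to 94.8 CPM in VTM and from 14.8 to 77.9 CPM in CON calves, and that of the portal fibroblast genes from 306 to 485 and from 342 to 772 CPM. Sums of activation genes ranged from 1876 to 3390 CPM in VTM and from 1960 to 6218 CPM in CON calves. Endothelial sums ran from 110 to 157 and from 145 to 457 CPM, and cholangiocyte sums from 26.9 to 67.5 and from 43.8 to 98.6 CPM. All 5 sums overlapped between diets, and their part in the levels of LRAT, VIM and CRYAB by diet was not tested.

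Relations to the marker sums were then tested among calves of the same diet. Whether VIM and CRYAB differed in these relations was not tested. With diet means removed, VIM correlated with the portal fibroblast sum (r = 0.85, permutation p = 0.0024, adjusted over 15 relations 0.0300, n = 12), the activation sum (r = 0.78, permutation p = 0.00799, adjusted p = 0.0300) and the cholangiocyte sum (r = 0.72, permutation p = 0.0126, adjusted p = 0.0379). On ranks within diets the same relations were weaker, with rho of 0.49, 0.60 and 0.60 (permutation p = 0.141, 0.0627 and 0.0626). Without the 2 calves farthest from the median they were 0.65 for portal fibroblast, 0.44 for activation and 0.77 for cholangiocyte genes. CON 1 was low and VTM 28 high within their diets for VIM, and without either calf the portal fibroblast relation was 0.73 or 0.81 with an adjusted permutation p of 0.119 or 0.0751, so that its call rested on them. In CON calves alone, the portal fibroblast sum had r = 0.92 with VIM and 0.94 with CRYAB. In VTM calves alone, that sum had r = 0.70 with VIM and -0.40 with CRYAB. These values within a single diet were not tested. The activation call was lost without CON 1 (0.62), CON 7 (0.69) or VTM 28 (0.73). The cholangiocyte call was lost when any of CON 1, CON 7, CON 25, VTM 22, VTM 28, VTM 34 or VTM 40 was left out (r = 0.62 to 0.73), with all 14 calves (r = 0.59, adjusted permutation p = 0.0664) and with the mean of log2 CPM (r = 0.24, adjusted permutation p = 0.662).

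CRYAB correlated with the endothelial sum (r = 0.75, permutation p = 0.00631, adjusted p = 0.0300, rho = 0.83) and inversely with the quiescent stellate sum (r = -0.74, permutation p = 0.00486, adjusted p = 0.0300, rho = -0.86, n = 12). Both ranks passed as well (permutation, adjusted p = 0.0280 each), and without the 2 calves farthest from the median r was 0.66 and -0.67. Without CON 31 they were 0.65 and -0.59 (adjusted permutation p = 0.137 for both), and with all 14 calves 0.59 and -0.64 (adjusted permutation p = 0.0664 and 0.0507). Since 19.7% of all tested genes had an r beyond 0.6 with CRYAB, correlations of this size were common for this gene, and nothing particular to these markers is read from them. The endothelial call was also lost without CON 37 (0.74, adjusted permutation p = 0.0651). Within diets the inverse relation to the quiescent genes was -0.85 in CON and -0.73 in VTM calves, and that to the endothelial genes was 0.86 and 0.62. The quiescent sum was mostly RELN. Gene by gene, with diet means removed, CRYAB had r of -0.69 with RELN, -0.75 with COLEC10 and -0.32 with CYGB, which were not tested.

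LRAT had no relation to a marker sum that passed. Its r was -0.60 with activation (permutation p = 0.0769, adjusted p = 0.192), -0.52 with cholangiocyte, -0.48 with portal fibroblast, 0.08 with endothelial and 0.07 with quiescent stellate genes (n = 12), and the respective rho were -0.57, -0.29, -0.51, 0.49 and -0.29. LRAT thus had no relation that passed to the sum of the 3 quiescent markers, which was mostly RELN. Nothing is read from the inverse relation of CRYAB to that sum. With 3 of 16 quiescent markers matched, these relations cannot settle the stellate name. The 3 genes are therefore called here by their names and not as a set of stellate cell genes. VIM had r of 0.26 with endothelial and -0.38 with quiescent genes, and CRYAB had 0.51 with portal fibroblast, 0.02 with activation and -0.17 with cholangiocyte genes, none of which passed. The value of CRYAB with activation genes joined 0.30 in CON and -0.71 in VTM calves, and it was -0.76 without CON 1 and CON 7. Those 3 values were not tested. Without VTM 28 the r of CRYAB with portal fibroblast genes was 0.79 and passed (adjusted permutation p = 0.0421).

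**Figure D5:**
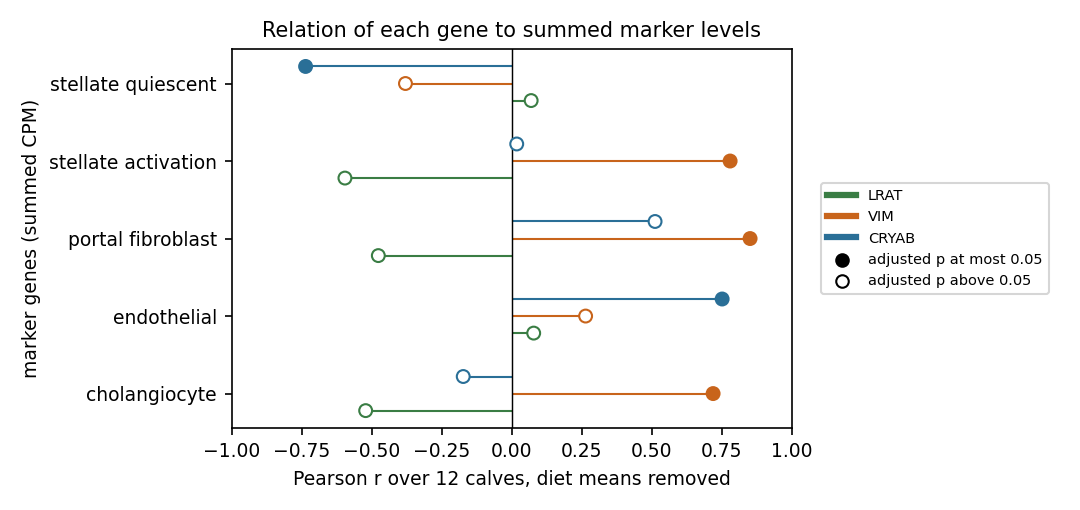
Pearson r (horizontal axis) of LRAT, VIM and CRYAB with the summed CPM of the matched markers of 5 cell types or states over 12 calves, diet means removed. Filled points have an adjusted permutation p of at most 0.05 over 15 relations, 3 of VIM, 2 of CRYAB and none of LRAT.

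Of the 9 relations between the genes and measures of the libraries, none passed adjustment. CRYAB had r = 0.62 with the mitochondrial share of counts (permutation p = 0.0546, adjusted p = 0.246, n = 12, rho = 0.69), which was 0.40 without CON 25 and CON 31. LRAT had r = -0.60 with total counts (permutation p = 0.0501, adjusted p = 0.246, n = 12, rho = -0.69), which was -0.67 without VTM 28 and VTM 40. The other 7 relations had r between -0.000196 and 0.44, the lowest being that of VIM with the mitochondrial share. The part of these measures in the levels was not tested.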

How the data were processed

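Per the labels and the study's methods, the authors prepared stranded libraries of polyadenylated liver RNA, trimmed the reads, aligned them to the bovine genome ARS-UCD1.2 with STAR 2.7.5 and deposited raw counts per gene of Ensembl release 109 for 14 calves. Which strand column was counted is not given in the sources used here, so reads of overlapping antisense genes cannot be set apart. Groups follow the treatment labels, and each calf was 1 replicate.

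Counts were filtered with filterByExpr, scaled by TMM and fitted with edgeR 4.0.16 in R 4.3.3, with diet as the only term. Standard errors are the log2 difference divided by the square root of F. Log2 CPM used a prior count of 2. Correlations were computed in Python 3.11.15 with scipy 1.17.1 and numpy 2.4.6, within diets by exact enumeration and, with diet means removed, by 100000 permutations within diets, two-sided, with Benjamini-Hochberg adjustment. The scripts were tested on simulated data. Alternatives were DESeq2 1.42.0 and its size factors, no filter or a minimum of 10 counts in every library, a prior count of 0.5, all 14 calves, mean log2 CPM of a list, and leaving out each calf. A further alternative without CON 31 and VTM 40, the comparison of correlations between diets and the relations to library measures were added after seeing the data.

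The members and the gene lists were chosen with earlier results of these data known. Names were paired with identifiers through the study's own gene tables, for 629 genes. Genes named are the members, the matched list genes, and the 5 most and 2 least alike named genes with a mean of at least 1 CPM, of which 1 is not reported here. The lists covered retinoid handling, intermediate filaments, small heat shock proteins, the heat shock response and markers of 14 cell types or states. Sums needed 3 matched genes. A planned test of the sums between diets was left out, because those genes had been picked on that contrast. No coordinates or sequences were printed, since no genome of this build was used here.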

Additional observations from a re-analysis of the deposited data

Results flagged for a closer look

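The summed level of the 6 portal fibroblast genes in the VTM calves was picked out because VTM 28, at 485 CPM, stood far from the others, with a gap to its neighbour of 0.648 of the range of the 6 calves on the log2 scale. Of 22 groups of values examined this way it was the only one, and chance alone picks out about 1 in 20. VTM 28 also had the highest VIM (238 CPM) and the lowest LRAT (11.8 CPM) and CRYAB (10.9 CPM) of the VTM calves the study analysed.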

How the results depend on the processing

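No paired analysis was possible because no calf number occurs in both diets. The log2 differences of LRAT, VIM and CRYAB kept their direction under every alternative run, and leaving out each calf in turn gave 0.74 to 0.93, -0.97 to -0.72 and -0.93 to -0.63. Of the matched list genes, 25 were past the threshold (background 3.71%). With all 14 calves there were 12 (background 2.07%), and without CON 31 and VTM 40 there were 15 (background 3.03%). Nothing is read from these counts. With all 14 calves, the difference between diets in the correlation was 1.31 for LRAT and CRYAB and -1.14 for VIM and CRYAB, both past adjustment, the correlation of VIM with cholangiocyte genes (0.59) and those of CRYAB with quiescent (-0.64) and endothelial genes (0.59) no longer passed, and LRAT with endothelial (-0.27) and CRYAB with cholangiocyte genes (0.19) changed sign. With the mean log2 CPM of a list, VIM with activation (0.68) and cholangiocyte genes (0.24) no longer passed, and LRAT with quiescent (-0.035) and endothelial genes (-0.048) changed sign. The cause of these shifts was not tested.

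Leaving out each calf in turn, the difference between diets in the correlation ranged from -0.18 to 0.46 for LRAT and VIM and from -1.65 to -1.22 for VIM and CRYAB, where leaving out VTM 34 gave -1.61 and passed. The correlation of LRAT ranged from -0.10 to 0.25 with quiescent, from -0.77 to -0.45 with activation (passing without CON 13) and from -0.078 to 0.39 with endothelial genes. That of VIM ranged from 0.62 to 0.86 with activation (not passing without CON 1, CON 7 or VTM 28, at 0.62, 0.69 and 0.73), from 0.73 to 0.88 with portal fibroblast genes (not passing without CON 1 or VTM 28) and from 0.62 to 0.83 with cholangiocyte genes (not passing without CON 1, CON 7, CON 25, VTM 22, VTM 28, VTM 34 or VTM 40, at 0.62 to 0.73). That of CRYAB ranged from -0.79 to -0.59 with quiescent (not passing without CON 31), from -0.62 to 0.17 with activation, from 0.10 to 0.79 with portal fibroblast (passing without VTM 28), from 0.65 to 0.79 with endothelial (not passing without CON 31 or CON 37, at 0.65 and 0.74) and from -0.58 to 0.0096 with cholangiocyte genes. With 6 calves a diet, relations of the size seen within diets did not pass adjustment, which does not show that they were absent.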
